A study of Canis lupus familiaris with 34 samples.

Results

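Primary cutaneous mast cell tumours (MCTs) whose biopsies held little keratinocyte RNA were compared by outcome, metastasising (M) against non-metastasising (NM). A tumour was counted as keratinocyte-poor when the mean log2 value of KRT1, KRT5, KRT10 and SFN was under 3.5, and 19 of the 34 MCTs of the series met this rule, 13 of 18 M and 6 of 16 NM. The values are deposited log2 signals from Robust Multichip Analysis (RMA) on canine gene arrays, 1 value for each Transcript cluster, the array's unit for a gene. Each MCT was a formalin-fixed, paraffin-embedded (FFPE) biopsy from a different pet dog treated for a single skin tumour. Dogs of the M group died or were euthanased because of metastatic disease, whatever adjuvant therapy they had, and dogs of the NM group received no adjuvant therapy and stayed free of metastasis through long follow-up. A biopsy is a piece of skin as well as of tumour, so its RNA mixes mast cells with epidermis, hair follicles, stroma and leukocytes, and for every gene below fewer cells of a type and less RNA per cell cannot be told apart.

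Mast cells are tissue-resident cells of the haematopoietic lineage that depend on the receptor tyrosine kinase KIT, carry the high-affinity IgE receptor (FCER1A, MS4A2) and store histamine, made by HDC, and proteases such as CPA3 and chymase (CMA1) in granules. Keratinocytes form the epidermis: basal cells make KRT5, suprabasal cells switch to KRT1 and KRT10, and SFN encodes the epithelial protein 14-3-3 sigma. Skin tumours of dogs push against or break through the epidermis, and a biopsy can include much or little of it.

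The tumours were selected on the 4 keratinocyte genes, so their levels are given as a description. The mean of the 4 genes ran from 2.04 to 2.96 in the keratinocyte-poor M MCTs (median 2.34) and from 2.18 to 3.00 in the NM MCTs (median 2.53). It was 4.01 to 7.35 in the other 5 M MCTs and 3.94 to 7.99 in the other 10 NM MCTs. No tumour lay between 3.00, the highest value under the limit, and 3.94, the lowest above it. KRT1 ranged from 1.52 to 2.88 (median 1.97) in M and from 1.54 to 3.71 (median 2.48) in NM, and KRT10 from 1.85 to 2.85 (median 2.12) in M and from 2.02 to 2.54 (median 2.29) in NM. KRT5 ranged from 2.12 to 3.35 (median 2.42) in M and from 2.14 to 3.09 (median 2.58) in NM. SFN ranged from 2.31 to 3.20 (median 2.69) in M and from 2.42 to 3.25 (median 2.86) in NM. The median of the whole table was 1.84 and its 75th percentile 2.50, and the M and NM ranges overlapped for all 4 genes.

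**Figure D1:**
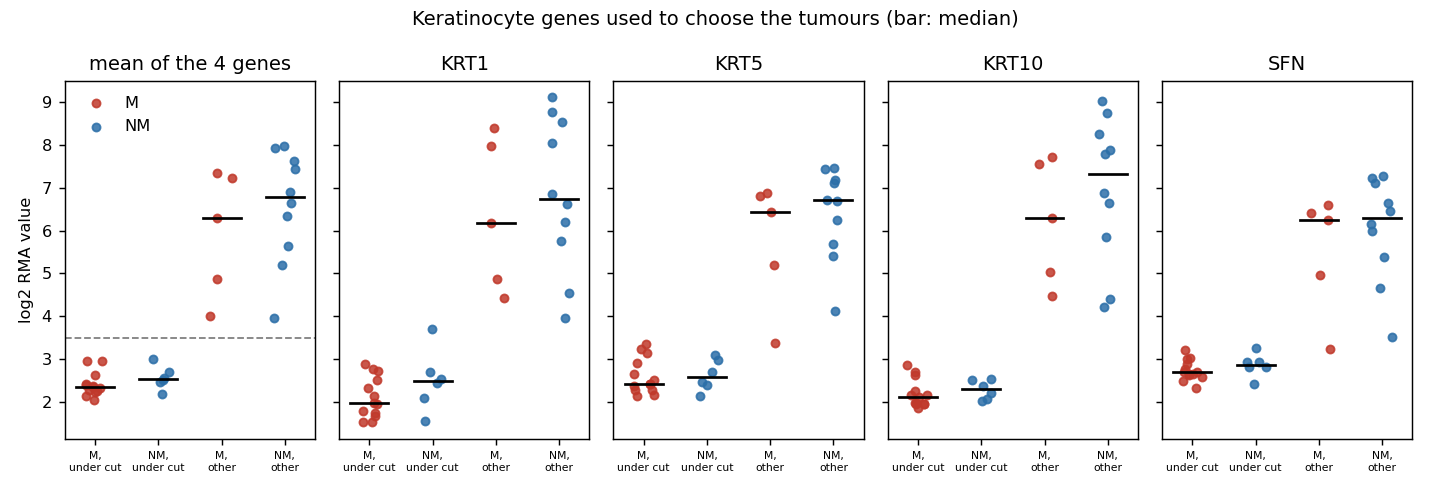
Log2 RMA values (vertical axes) of the mean of the 4 keratinocyte genes and of KRT1, KRT5, KRT10 and SFN in M and NM MCTs under the limit and in the other M and NM MCTs, 1 point per tumour with a bar at the median; the dashed line marks 3.5. The tumours under the limit reach at most 3.00 on the mean of the 4 genes, and the others begin at 3.94.

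The dogs of the keratinocyte-poor M MCTs were 2 to 15 years old (median 9), and those of the NM MCTs 3 to 11 years (median 5). The means were 8.46 ± 3.26 years (SD, n = 13) in M and 5.67 ± 2.80 years (SD, n = 6) in NM. They differed by 2.79 years (two-sided exact permutation test, p = 0.103), and with so few NM dogs this does not show equal ages. The M group held 7 females and 6 males, of which 10 were neutered, and the NM group 2 females and 4 males, of which 2 were neutered. There were 4 Labrador Retrievers in the M group and 0 in the NM group. The parts that age, sex, neutering and breed have in the results below were not tested beyond the covariates named at the end. For the whole series the study reports that NM specimens had been stored longer on average than M specimens. It found no correlation of specimen age with RNA integrity. Specimen age was not fitted here, and its part in the results was not tested.

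Checked against its defining markers, the mast cell identity of these biopsies was uneven. CPA3 ran from 1.79 to 7.42 (median 3.38) in the M MCTs and from 2.01 to 8.11 (median 2.59) in the NM MCTs. FCER1A ran from 1.36 to 4.67 (median 2.30) in M and from 1.31 to 6.34 (median 1.63) in NM, and KIT from 1.73 to 4.37 (median 2.61) in M and from 2.03 to 4.28 (median 2.21) in NM. All 6 measured markers (KIT, CPA3, FCER1A, MS4A2, HDC and CMA1) lay less than 1 log2 unit above the table's median in 3 of 13 keratinocyte-poor tumours of the M group and 3 of 6 of the NM group. Among the tumours over the limit this held for 0 of 5 M MCTs and 2 of 10 NM MCTs. One NM tumour, replicate 6, had the highest CPA3 (8.11), FCER1A (6.34) and CMA1 (6.88) of the 19, and M replicate 2 followed with 7.42, 4.67 and 5.88. The tryptase genes were not identified by symbol on this platform. M minus NM differences were 0.27 for CPA3 (95% CI -1.58 to 2.11), 0.24 for KIT (95% CI -0.54 to 1.03), 0.32 for MS4A2 (95% CI -0.68 to 1.32) and 0.09 for FCER1A (95% CI -1.21 to 1.39), and all 4 intervals reached past 1 log2 unit.

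Several tumours stood apart through genes of other tissues. NM replicate 8 carried the genes of pigment cells: PMEL, which builds the fibrils of melanosomes, was 6.44 there and at most 2.51 in the other 18 tumours. TYR, the first enzyme of melanin synthesis, was 4.79 in NM replicate 8, against 1.28 to 1.79 in the M MCTs and at most 1.60 in the other NM MCTs. DCT, another melanin enzyme, was 5.36, against at most 1.98 elsewhere, and the transcription factors TFAP2A and MITF were 4.53 and 3.57 against at most 2.10 and 2.50. In the same tumour the mean of the 22 tested mast cell genes was 2.03, the lowest of the 19, with KIT at 2.18, CPA3 at 2.12 and FCER1A at 1.31. Its melanocyte list (5 tested genes) averaged 4.45, against 1.98 to 2.49 in the M MCTs. M replicate 6 carried skeletal muscle genes, with CKM, the muscle creatine kinase, at 10.57 against at most 5.80 elsewhere, MYH2, a fast myosin, at 8.67 against at most 3.17, and TTN at 8.24 against at most 3.10. Its muscle list averaged 7.80, and CPA3 was 1.79. The muscle list averaged 3.64 in NM replicate 4 and at most 2.54 in the other 17 tumours.

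M replicate 8 led in genes of the stromal matrix, with LUM, a collagen-binding proteoglycan, at 8.56 against at most 5.88 in the others, CTHRC1 at 5.84 against at most 3.21, and SFRP2, a secreted Wnt modulator, at 8.93 against at most 6.90. M replicate 2 led in leukocyte genes, with the eosinophil-attracting chemokine CCL24 at 6.90 against at most 4.26 and the B cell receptor subunit CD79B at 6.34 against at most 4.30. Of 11076 genes, 128 were more than 1 log2 unit above every other keratinocyte-poor tumour in M replicate 2, 110 in M replicate 6, 62 in M replicate 8 and 60 in NM replicate 8. The other 15 tumours had 0 to 14 such genes. The labels give both NM replicate 8 and M replicate 6 as cutaneous MCTs, and how far these biopsies consist of mast cell tumour was not tested. Both were kept in the comparison, and values without them are given beside results that rest on them.

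**Figure D2:**
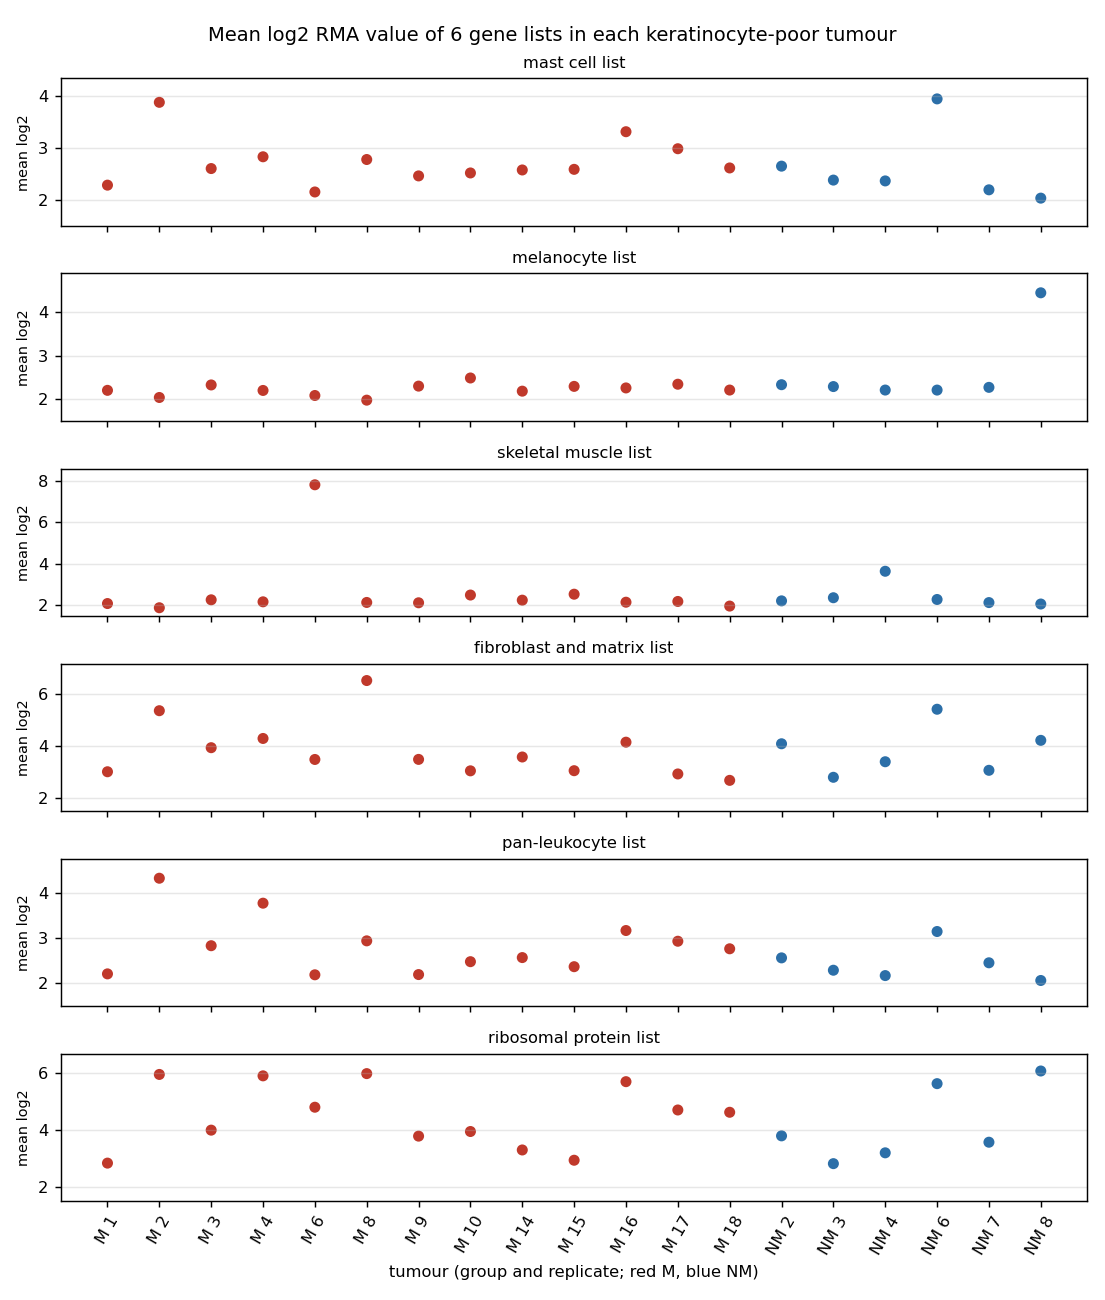
Mean log2 RMA value (vertical axes) of 6 gene lists in each of the 19 keratinocyte-poor MCTs (horizontal axis, M in red, NM in blue). NM replicate 8 is alone at 4.45 on the melanocyte list, M replicate 6 at 7.80 on the skeletal muscle list, and the ribosomal protein list spreads widely within both groups.

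M MCTs were then compared with NM MCTs among the keratinocyte-poor tumours, which asks which genes track outcome when the keratinocyte content is low on both sides. No Transcript cluster reached an adjusted p under 0.05 (0 of 21131 tested, limma with Benjamini-Hochberg adjustment, percent called 0, smallest adjusted p 1.00). At an unadjusted p under 0.05 there were 436 clusters, 149 higher in M (0.705% of those tested) and 287 lower in M (1.36%), whereas 5% of 21131 is 1057. The methods' t-test, run on the same values, gave 448 such clusters and 0 after adjustment. The median M minus NM difference over all tested clusters was -0.01. Without NM replicate 8 the count at an unadjusted p under 0.05 was 871, 188 higher and 683 lower in M, and 274 of these clusters were among the 436. Without NM replicate 8 and M replicate 6 it was 865. Both fits left 0 clusters at an adjusted p under 0.05. The genes described next are therefore a ranking of these 19 tumours, and none of their differences held after adjustment.

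Among the genes ranked highest in M MCTs, the largest difference belonged to the microRNA precursor MIR632, which the study also discusses. It ran from 3.18 to 7.45 (median 5.61) in M and from 2.46 to 5.81 (median 3.67) in NM. Of the 13 M MCTs, 12 lay above the NM median and 6 above the highest NM tumour, and the difference was 1.80 (95% CI 0.63 to 2.97, unadjusted p 0.00456), or 2.04 without NM replicate 8. CALM3, 1 of the calmodulin genes of calcium signalling, ran from 1.80 to 4.39 (median 3.36) in M and from 2.19 to 3.36 (median 2.50) in NM, a difference of 0.76 (95% CI 0.10 to 1.41, unadjusted p 0.0267). Only M replicate 18 was below every NM tumour. The unadjusted p of CALM3 was above 0.05 without NM replicate 2, 3 or 8, and was 0.059 without NM replicate 8.

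PIP4K2A, a kinase of phosphoinositide signalling, ran from 2.09 to 4.92 (median 3.97) in M and from 2.42 to 3.76 (median 3.13) in NM, a difference of 0.75 (unadjusted p 0.0318), and 7 M MCTs exceeded every NM MCT. Its unadjusted p was above 0.05 without NM replicate 2, 3 or 7. The same held with array weights and with age, Labrador Retriever or the mean of the 4 genes as a covariate. KRT18, a keratin of simple epithelia rather than epidermis, ran from 2.24 to 4.49 (median 3.07) in M and from 2.42 to 2.86 (median 2.72) in NM. Its difference was 0.56 (unadjusted p 0.0487, and 0.0784 without NM replicate 8), and 10 M MCTs lay above all NM MCTs. KRT18 no longer passed in 14 of the fits that left out a single tumour, and differed by 0.36 with age as a covariate. The uncharacterised LOC102151831 was 1.04 higher in M (unadjusted p 0.0178) and 0.88 higher without NM replicate 8 (unadjusted p 0.053). It also no longer passed with Labrador Retriever as a covariate or with the limit on the 4 genes at 4. The other 5 of the first 10 had unadjusted p of 0.0505 to 0.0716. CFL1, the actin-severing protein cofilin, ran from 2.72 to 7.37 (median 5.70) in M and from 1.90 to 6.29 (median 4.08) in NM, and the histone gene H2AC13 from 1.91 to 6.56 (median 4.92) in M and from 1.96 to 5.31 (median 2.83) in NM. Their differences were 1.46 and 1.43, and 1.79 and 1.88 without NM replicate 8. NDUFS8, a subunit of respiratory complex I, differed by 0.55, the ribosomal protein gene RPL34 by 1.09 and the uncharacterised LOC475935 by 0.70. The NDUFS8 difference was 0.37 without M replicate 6, and that tumour stood at 5.51 and the other 18 tumours reached at most 3.45.

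Lower in M MCTs, GSR, glutathione reductase, ranked first: it ran from 2.08 to 3.07 (median 2.66) in M and from 2.72 to 3.94 (median 3.09) in NM. Every M tumour lay below the NM median and 9 of 13 lay below the lowest NM tumour, with a difference of -0.61 (95% CI -1.001 to -0.229, unadjusted p 0.00344) and of -0.48 without NM replicate 8. GPC1, the cell surface heparan sulphate proteoglycan glypican-1, ran from 2.19 to 3.82 (median 3.26) in M and from 3.69 to 4.74 (median 3.76) in NM. Of the M MCTs, 10 lay below every NM MCT, and the difference was -0.68 (95% CI -1.14 to -0.23, unadjusted p 0.00543), or -0.53 without NM replicate 8. NR4A2, an immediate early gene that encodes an orphan nuclear receptor, ran from 2.63 to 3.46 (median 3.06) in M and from 2.96 to 4.63 (median 3.38) in NM. The NM range was drawn out by replicates 7 and 8, at 4.56 and 4.63, and the difference was -0.62 (unadjusted p 0.00745), or -0.43 without NM replicate 8. FOXD3, a transcription factor of the neural crest, ran from 1.15 to 2.97 (median 2.10) in M and from 2.25 to 3.06 (median 2.52) in NM. Its difference was -0.60 (unadjusted p 0.0122), and -0.55 without NM replicate 8, in which it was 2.82.

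The next 4 genes were highest in NM replicate 8. Of the fits that left out a single tumour, only the one without it took PHGDH, SLC7A5 and COL18A1 above an unadjusted p of 0.05. PHGDH, the first enzyme of serine synthesis, was 4.62 in that tumour, 2.05 to 2.65 in the other NM MCTs and 1.75 to 2.64 in the M MCTs. SLC7A5, a transporter of large neutral amino acids, was 5.31 there, at most 3.53 in the other NM MCTs and 2.45 to 3.29 in M. COL18A1, a basement membrane collagen, was 4.39 there, at most 3.10 in the other NM MCTs and 1.74 to 3.03 in M. AP1S1, a subunit of a clathrin adaptor, was 3.87 there, at most 3.55 in the other NM MCTs and 2.09 to 3.63 in M. AP1S1 also no longer passed an unadjusted p under 0.05 without NM replicate 3 or without NM replicate 6. The M minus NM differences of PHGDH, SLC7A5, COL18A1 and AP1S1 were -0.63, -0.59, -0.53 and -0.51 over all 19 tumours, with unadjusted p of 0.028 to 0.0298. Without NM replicate 8 they were -0.26, -0.24, -0.26 and -0.37, with unadjusted p of 0.101 to 0.131. MIR23A, another microRNA precursor, stood out in NM replicate 2 instead, at 4.39 against 1.32 to 2.20 in M and 1.73 to 2.82 in the other NM MCTs, with a difference of -0.63 (unadjusted p 0.0303). Without NM replicate 2 it was -0.26. TLNRD1, an actin-bundling relative of talin, ran from 2.57 to 4.59 (median 3.61) in M and from 3.73 to 4.38 (median 3.99) in NM, a difference of -0.51 (unadjusted p 0.0398). It no longer passed in 8 of the fits that left out a single tumour, and ran from -0.62 to -0.0018 over the other alternatives.

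**Figure D3:**
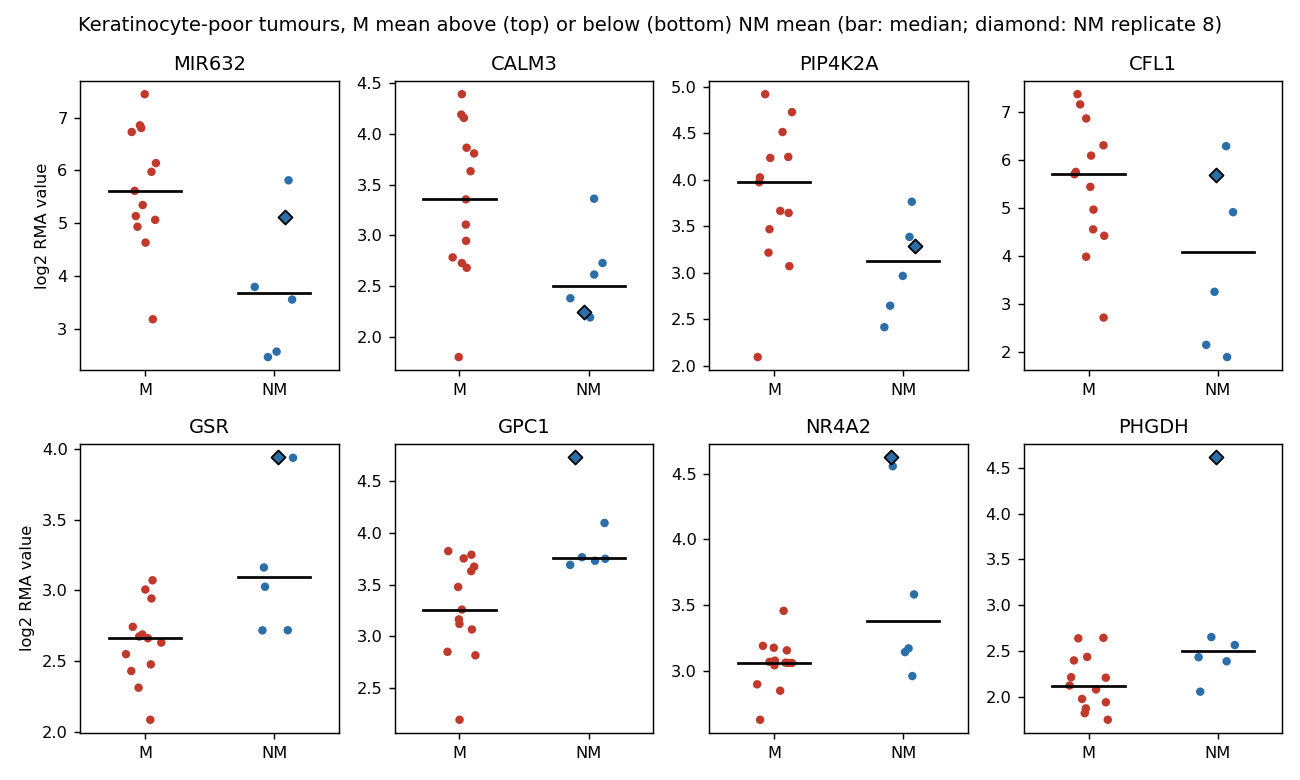
Log2 RMA values (vertical axes) of 8 ranked genes in the 13 M and 6 NM keratinocyte-poor MCTs, 1 point per tumour, with a bar at the median and a diamond for NM replicate 8. GSR, GPC1, MIR632 and CALM3 shift across the groups, while PHGDH is high only in NM replicate 8, at 4.62.

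The genes that the study lists as more than 2-fold different were chosen on these same tumours, so their direction is not independent evidence. Besides KRT1, KRT5, KRT10 and SFN, 11 of them were found by symbol in the platform annotation and are described here, and the rest of that list was not analysed here. Of the 11, 0 passed an unadjusted p under 0.05 among the keratinocyte-poor MCTs in either direction, beside 0.705% and 1.36% of all clusters. The median M minus NM difference of the 11 was -0.19, and 9 were below 0. The keratinocyte genes among them vary with the genes that chose the tumours, so their narrow spread follows from that choice. PERP, a desmosomal p53 target, differed by -0.27 (95% CI -0.62 to 0.07) and PKP1, a desmosomal plaque protein, by -0.19 (95% CI -0.43 to 0.05), or -0.27 without NM replicate 8 (unadjusted p 0.0231). KRT15, a basal keratin, differed by -0.15 (95% CI -0.67 to 0.37), KRTDAP by -0.06, KRTAP3-1 by -0.04, DSP by 0.00 and SBSN by 0.08. In the other 15 MCTs the same genes differed by -0.48 (PERP), -0.91 (PKP1), -1.06 (KRT15), -0.77 (KRTDAP), -1.68 (KRTAP3-1), -0.86 (DSP) and -1.15 (SBSN), and over all 34 MCTs, which contain the 19, by -1.12 (PKP1) to -1.65 (KRTDAP).

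The 4 other genes of this list, EGR1, JUNB, CLEC3B and CD9, had differences of -0.71 to -0.47 among the keratinocyte-poor MCTs, with intervals that held 0. EGR1, an immediate early zinc finger factor, ran from 2.15 to 5.98 (median 3.24) in M and from 3.17 to 5.43 (median 4.72) in NM, a difference of -0.71 (95% CI -1.81 to 0.39), beside -0.80 in the other tumours. JUNB, a subunit of the AP-1 factor, ran from 2.81 to 7.19 (median 4.24) in M and from 3.42 to 6.56 (median 5.73) in NM, a difference of -0.55 (95% CI -1.80 to 0.69), beside -0.56 in the others, and it ran from -0.92 to -0.29 as each tumour was left out. CLEC3B, the plasminogen-binding protein tetranectin, ran from 2.76 to 4.85 (median 4.10) in M and from 3.33 to 5.97 (median 4.02) in NM. Its difference was -0.54 (95% CI -1.31 to 0.24), beside -0.55 in the others, and the M median lay above the NM median. Without NM replicate 6 the CLEC3B difference was -0.23. CD9, a tetraspanin of the cell surface, ran from 2.42 to 3.62 (median 2.64) in M and from 2.61 to 5.22 (median 3.00) in NM. The 5.22 belonged to NM replicate 8, and the CD9 difference was -0.47 with that tumour and -0.09 without it. With age as a covariate EGR1 differed by -0.35, JUNB by -0.51, CLEC3B by -0.59 and CD9 by -0.46.

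**Figure D4:**
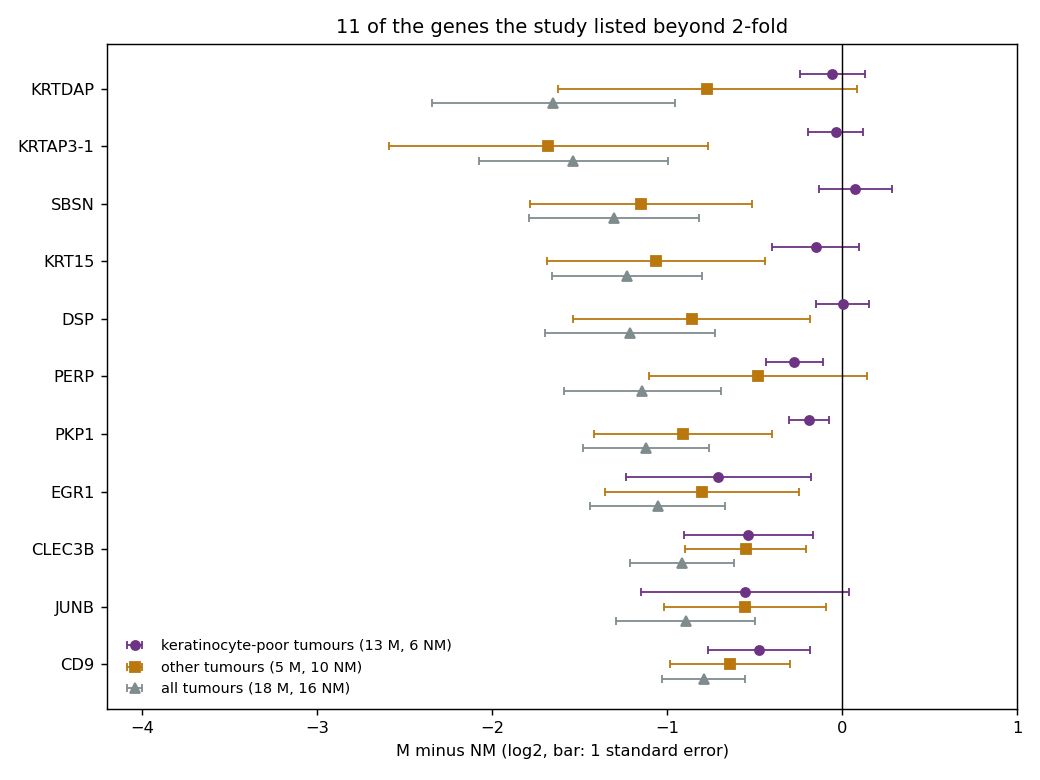
M minus NM differences on the log2 scale (horizontal axis, bars 1 standard error) of 11 of the genes that the study lists beyond 2-fold, without the 4 genes of the rule and those not analysed here, in the keratinocyte-poor MCTs, in the other MCTs and in all MCTs, which contain both. The 7 keratinocyte genes lie between -0.27 and 0.08 in the keratinocyte-poor MCTs, and EGR1, JUNB, CLEC3B and CD9 between -0.71 and -0.47.

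Of a list of other genes that the study discusses or places in functional classes, also chosen on these tumours, 29 were tested, 22 had a difference below 0 and the median was -0.14. At an unadjusted p under 0.05, 2 were higher in M (MIR632 and CALM3) and 0 were lower, beside 0.705% and 1.36% of all clusters. SFRP4, a secreted inhibitor of Wnt signalling, ran from 2.05 to 3.10 (median 2.43) in M and from 2.18 to 5.15 (median 2.58) in NM, a difference of -0.63 (unadjusted p 0.0603). It ran from -0.82 without NM replicate 3 to -0.22 without NM replicate 6, the tumour at 5.15, and was -0.78 without NM replicate 8. PLPP3, a lipid phosphatase, differed by -0.28 (unadjusted p 0.0594), and BCL9L, a coactivator of beta-catenin, by -0.30 (unadjusted p 0.0896), which was -0.13 without NM replicate 7. FOS, the partner of JUN proteins in AP-1, differed by -0.37 (unadjusted p 0.419), and by -0.038 without NM replicate 2. EMP1, an epithelial membrane protein, differed by -0.39 over all 19 tumours and by -0.05 without NM replicate 8. TFAP2A differed by -0.41 over all 19 and by 0.06 without it.

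Immediate early genes, which cells transcribe at once after a stimulus, had M minus NM differences below 0 for 20 of 20 tested members, with a median of -0.22. Over all tested clusters 51.7% of differences were below 0. Without NM replicate 8, 18 of the 20 were below 0. The members of this list, as of those below, share tumours, so their signs are not independent. The study chose some immediate early genes, such as EGR1, on these same tumours, so their direction is not independent evidence either. Of the 20 members, 3 passed an unadjusted p under 0.05, all lower in M, beside 1.36% of all clusters: NR4A2, NR4A1 and FOSB. NR4A1, a close relative of NR4A2, ran from 1.73 to 2.90 (median 2.63) in M and from 2.45 to 3.22 (median 3.07) in NM, a difference of -0.42 (unadjusted p 0.0159), and 5 of 6 NM MCTs lay above every M MCT. FOSB, an AP-1 subunit, ran from 1.85 to 2.67 (median 2.21) in M and from 2.02 to 4.75 (median 2.60) in NM, a difference of -0.56 (unadjusted p 0.0474). The 4.75 belonged to NM replicate 2, without which the FOSB difference was -0.18. FOSB no longer passed in 14 of the fits that left out a single tumour, nor in the methods' t-test. EGR3 differed by -0.37 (unadjusted p 0.109). The median of the list was -0.21 in the other tumours, and was -0.32 without NM replicate 8 and -0.12 without NM replicate 2, the extremes when each keratinocyte-poor tumour was left out in turn.

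Pan-leukocyte and mast cell genes had differences above 0 more often than below, and neutrophil genes below 0 in 7 of 9, with a median of -0.10. Without NM replicate 8 the neutrophil median was 0.06, and 6 of the 9 differences were above 0. All 10 tested pan-leukocyte genes were higher on average in M, with a median difference of 0.44, and 0 passed an unadjusted p under 0.05. CD53, a leukocyte tetraspanin, differed by 0.62 (95% CI -0.13 to 1.37) and PTPRC, which encodes CD45, by 0.46 (95% CI -0.17 to 1.08). MS4A1, which encodes the B cell antigen CD20, ran from 1.26 to 3.86 (median 1.89) in M and from 1.37 to 1.73 (median 1.52) in NM, with 7 M MCTs above every NM MCT and a difference of 0.49 (95% CI -0.09 to 1.07). With age as a covariate the differences of CD53, PTPRC and MS4A1 were 0.29, 0.22 and 0.24. The pan-leukocyte median was 0.30 without M replicate 2 and 0.59 without NM replicate 6. Of 22 tested mast cell genes, 16 had a difference above 0 and 0 passed an unadjusted p under 0.05 in either direction, with a median of 0.18. That median was 0.05 without NM replicate 8, 0.05 without M replicate 2 and 0.33 without NM replicate 6.

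Ribosomal protein genes varied widely between tumours of both groups. The mean of the 60 tested genes ran from 2.83 to 5.98 (median 4.62) in M and from 2.81 to 6.07 (median 3.68) in NM. Differences were above 0 for 52 of the 60, with a median of 0.34, and 1 passed an unadjusted p under 0.05, beside 0.705% of all clusters higher in M. It was RPS3A, from 5.33 to 6.43 (median 5.79) in M and from 4.96 to 5.84 (median 5.50) in NM. Its difference was 0.38 (unadjusted p 0.0392), or 0.28 without NM replicate 8 (unadjusted p 0.126). RPS3A no longer passed in 7 of the fits that left out a single tumour. The list's median was 0.72 without NM replicate 8, whose ribosomal mean was the highest of the 19, and 0.03 without NM replicate 3, whose mean was the lowest. CFL1, RPL34 and H2AC13 were also low in NM replicates 3 and 7, at 1.90 to 4.37, and the part of this common variation in their differences was not tested. Ribosomal protein genes have many near-identical copies, so signal may be shared between them. The standard deviation of an array over all clusters, a rough measure of its contrast, ran from 1.00 to 1.33 in M and from 1.06 to 1.26 in NM (difference of means 0.01, two-sided exact permutation test, p = 0.845).

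Other gene lists showed few differences. Of 110 tested microRNA precursors, 1 was higher in M (MIR632) and 3 were lower, MIR23A, MIR130B and MIR543, beside 0.705% and 1.36% of all clusters, with a median of -0.03. MIR130B differed by -0.43 (unadjusted p 0.0166), and by -0.28 without NM replicate 8. MIR543 differed by -0.29, and by -0.21 without NM replicate 8, 1 of 13 tumours without which it no longer passed. MLANA was the 1 of 5 melanocyte genes at an unadjusted p under 0.05, beside 1.36% of all clusters lower in M. Its difference was -0.32 (unadjusted p 0.0417), and -0.21 without NM replicate 8 (unadjusted p 0.158). It no longer passed in 10 of the fits that left out a single tumour. In the whole melanocyte list the median was -0.32 with NM replicate 8 and -0.08 without it. RGS5, a pericyte regulator of G protein signalling, was the 1 of 10 smooth muscle and pericyte genes at an unadjusted p under 0.05. Over all clusters, 0.705% were higher in M at that p. The RGS5 difference was 0.27 (unadjusted p 0.029), and 0.21 without NM replicate 4, where it no longer passed. It also no longer passed without NM replicate 2 and with age as a covariate. ADAMTS9, a secreted metalloprotease, was the 1 of 17 extracellular proteases, beside the same 0.705% of all clusters. Its difference was 0.30 (unadjusted p 0.0221), and 0.27 without NM replicate 8, where it no longer passed. The basal keratinocyte, suprabasal keratinocyte and hair follicle lists had medians of -0.04, -0.05 and 0.00 with 0 genes at an unadjusted p under 0.05, and in the other 15 tumours medians of -0.28, -0.34 and -0.41. The skeletal muscle list had a median of 0.19, which was -0.26 without M replicate 6. Wnt genes had 14 of 17 differences below 0 and a median of -0.13, with 0 at an unadjusted p under 0.05. Without NM replicate 8 their median was -0.18 and 4 were lower in M at that p, beside 683 of 21131 clusters. The lowest Wnt difference, -0.63, was that of SFRP4, which the study chose on these same tumours, so these signs are not independent evidence.

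**Figure D5:**
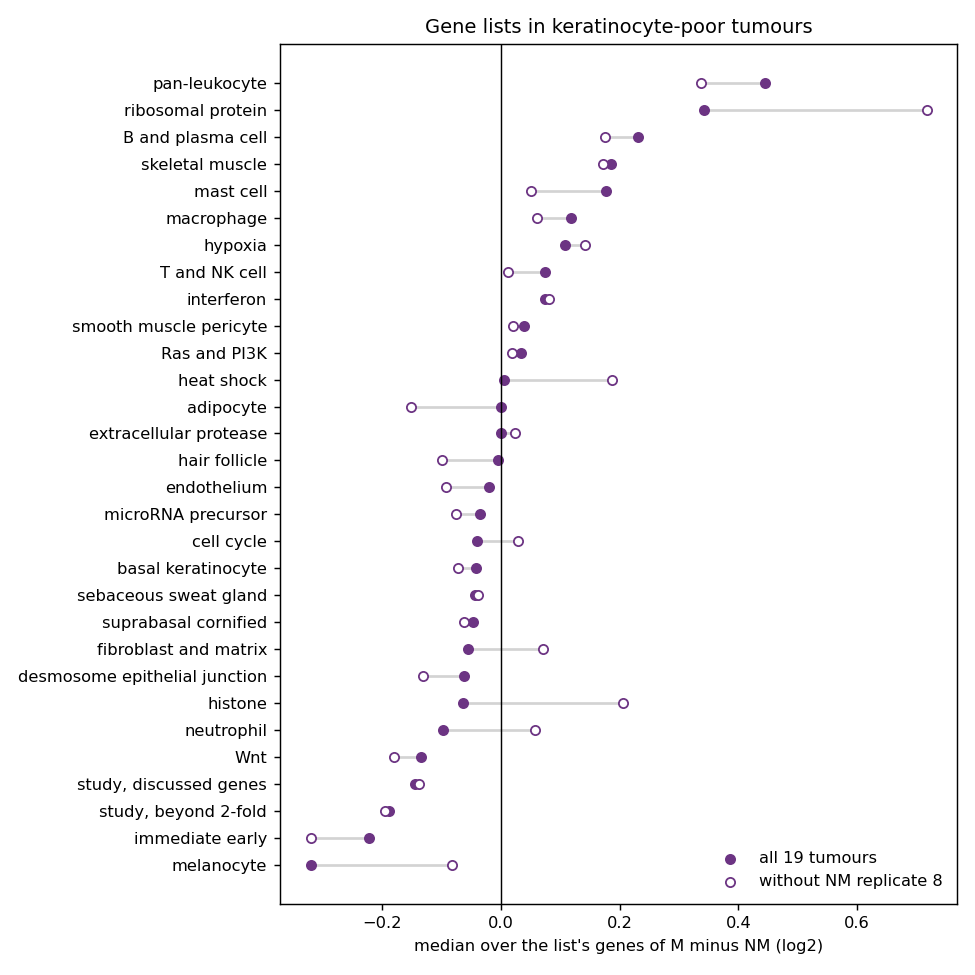
Median M minus NM difference (log2, horizontal axis) of the gene lists, other than the 4 genes of the rule and the eosinophil list, in the 19 keratinocyte-poor MCTs (filled circles) and without NM replicate 8 (open circles). The ribosomal protein median is 0.34 over the 19 tumours and 0.72 without NM replicate 8, the melanocyte median -0.32 and -0.08, while the immediate early and pan-leukocyte medians stay on their sides of 0.

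The M minus NM difference of the keratinocyte-poor MCTs was set against that of the other 15 MCTs by testing the difference between them in 1 fit of 4 groups. No cluster passed an adjusted p under 0.05, and 550 of 21131 passed unadjusted (2.6%). In the other MCTs alone 0 clusters passed an adjusted p under 0.05, and unadjusted 408 were higher in M (1.93%) and 407 lower in M (1.93%). The smallest unadjusted p belonged to IQSEC2, an exchange factor of ARF GTPases, with M minus NM of 0.40 in the keratinocyte-poor and -0.20 in the other MCTs. In the keratinocyte-poor MCTs IQSEC2 ran from 1.92 to 2.47 (median 2.34) in M and from 1.51 to 2.19 (median 1.92) in NM, so that 10 of 13 M MCTs exceeded every NM MCT. MRPS18A, of the mitochondrial ribosome, differed by -0.40 and 0.22, and MRM3, a methyltransferase of mitochondrial ribosomal RNA, by -0.24 and 0.22. CHTOP, an mRNA export factor, differed by -0.20 and 0.45, and the cell cycle phosphatase CDC25B by 0.01 and -0.59. Their unadjusted p for the difference ran from 0.000864 to 0.00162, with adjusted p of 1.00 (limma). For the 7 keratinocyte genes of the study's list the difference between the tumour sets ran from 0.21 for PERP to 1.64 for KRTAP3-1 (95% CI -0.11 to 3.40), and for EGR1, JUNB, CLEC3B and CD9 from 0.00 to 0.16, with intervals that reached at least 0.77 on both sides of 0.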

How the data were processed

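Expression was measured on Affymetrix Canine Gene 1.1 ST arrays in FFPE biopsies of 34 cutaneous MCTs, 1 array for each dog. The deposited values are log2 signals, made by the authors with RMA (background correction, quantile normalisation, summarisation per Transcript cluster) in Affymetrix Expression Console 1.3 after they had left out outlier arrays. Scan dates and array strips are not given in the sources used here, and so no batch was fitted. The genome build of the array annotation is not given in the sources used here. Array medians ran from 1.79 to 1.91, and the number of arrays limits the precision.

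Clusters above the table's median (1.84) in at least 30% of the keratinocyte-poor M or NM MCTs were tested, 21131 of 32391. Of these, 11340 had 1 gene symbol, 216 several and 9575 none in the platform annotation. Where a gene had several clusters, the one with the highest mean over all tumours was used. M was compared with NM by limma 3.58.1 in R 4.3.3, two-sided with Benjamini-Hochberg adjustment, and the procedure was tested on simulated data. Ages and array spread were compared by exact permutation.

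The text names the 4 genes of the rule, the genes that the study lists, the 10 genes with the smallest p in each direction among those with a difference of at least 0.5, up to 4 genes with the smallest p in each list described, and the 5 with the smallest p for the difference between tumour sets. Genes that describe a tumour standing apart, the mast cell markers, and some members of the lists were named after their values were seen. The members and lists were chosen with earlier results of these data known. Alternatives were other level filters, repeated normalisation, array weights, covariates, other limits on the 4 genes, other keratinocyte genes, a replicate block and the omission of each tumour in turn.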

Additional observations from a re-analysis of the deposited data

Results flagged for a closer look

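For 20 of 74 genes examined among the 6 keratinocyte-poor NM MCTs, 1 tumour lay far from the other 5, by the gap to its nearest neighbour as a share of the range. Chance gives about 1 in 20 for a gene not chosen by its values, but some of these genes were named because a tumour stood apart on them, so the count is a description and is not compared with that rate. The genes were not independent, and 5 tumours supplied all 20.

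NM replicate 8 was highest for 9 genes. The pigment genes PMEL, DCT and TYR were 6.44, 5.36 and 4.79 there, with 1.96, 1.86 and 1.60 in the next NM tumour. TFAP2A was 4.53 (next 1.92), CD9 5.22 (next 3.30), H2AC13 5.31 (next 3.04), PHGDH 4.62 (next 2.65), COL18A1 4.39 (next 3.10) and SLC7A5 5.31 (next 3.53).

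NM replicate 6 was highest for the mast cell genes CPA3 at 8.11 (next 2.97), CMA1 at 6.88 (next 3.54), FCER1A at 6.34 (next 1.70), MS4A2 at 5.00 (next 2.58) and KIT at 4.28 (next 2.51), and lowest for NR4A1 at 2.45 (next 2.95). NM replicate 4 was highest for the muscle genes CKM at 5.80 (next 3.89), MYH2 at 3.17 (next 2.04) and TTN at 3.10 (next 2.03). FOSB was 4.75 in NM replicate 2 (next 2.98), and BCL9L was 5.10 in NM replicate 7 (next 4.37).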

How the results depend on the processing

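A limit of 3 on the 4 genes and the choice by other keratinocyte genes gave the same 436 clusters at an unadjusted p under 0.05. Neither is therefore a separate check. No alternative gave the keratinocyte-poor comparison a cluster at an adjusted p under 0.05. Its 436 clusters at an unadjusted p under 0.05 (149 higher and 287 lower in M) became 659 (244 higher) with no level filter, 192 (66 higher, 126 lower) with a filter at the 75th percentile, 750 (531 lower) with array weights and 705 (241 higher, 464 lower) with 4 groups in 1 fit. Leaving out each tumour in turn gave 399 to 871, with 246 to 683 lower in M, and 871 and 683 came without NM replicate 8. Replicate numbers were shared by 5 pairs of M and NM MCTs, and correlations of their deviations ran from -0.42 to 0.41, with 2 over 0.1, so the numbers were not taken as pairs. With the replicate block the count was 1340 (872 higher, 468 lower). In the other tumours age as a covariate gave 1625, and leaving out each tumour gave 0 to 1 clusters at an adjusted p under 0.05, the 1 without NM replicate 5. The following alternatives were chosen after seeing the data. The same 10 tumours without the block gave 1175 (661 higher, 514 lower), array spread as a covariate 242 higher, and NM replicate 8 and M replicate 6 both left out 865 (669 lower). Of 61 genes, 26 had an unadjusted p under 0.05 in the keratinocyte-poor MCTs, beside 436 of 21131 clusters tested. Many of the 61 were named for their small p, so this count and the steadiness of the 26 are a description. Of the 26, 8 stayed under 0.05 without each tumour in turn (MIR632, GSR, GPC1, NR4A2, FOXD3, NR4A1, IQSEC2 and MRPS18A), 12 did not without NM replicate 8, 12 did not with age as a covariate, and 0 changed sign. Signs that turned belonged to genes that were not called, and the cause was not tested. With the replicate block, and in the same tumours without it, EGR1 was 0.43, JUNB 1.01, FOS 0.54, BCL9L 0.080, KRTDAP 0.049 and SBSN -0.23. With array weights KRTDAP was 0.067, DSP -0.037, CPA3 -0.20, FCER1A -0.18 and CDC25B -0.026. With age DSP was -0.0062, CPA3 -0.26, FCER1A -0.12 and CDC25B -0.041, and with age and array spread the same 4 genes were -0.0042, -0.29, -0.13 and -0.043. With sex DSP was -0.027 and CDC25B -0.0076, and with array spread CDC25B was -0.0027. With Labrador Retriever as a covariate KRTDAP was 0.010, DSP -0.098 and CDC25B -0.0025. With the mean of the 4 genes KRTDAP was 0.023 and KRTAP3-1 0.012. With the limit at 4 SBSN was -0.018, DSP -0.10 and CDC25B -0.045. With the mast cell list mean CPA3 was -0.19, FCER1A -0.24 and CDC25B -0.022. With NM replicate 8 and M replicate 6 left out KRTDAP was 0.039, SBSN -0.048, DSP -0.095, TFAP2A 0.049, DCT 0.011, PMEL 0.19 and FCER1A -0.038. Without each tumour in turn KRTAP3-1 ran from -0.11 to 0.040, FCER1A from -0.12 to 0.89, DSP from -0.10 to 0.092, CPA3 from -0.047 to 1.21, CDC25B from -0.019 to 0.060, KRTDAP from -0.15 to 0.014, SBSN from -0.056 to 0.18, TFAP2A from -0.53 to 0.061, DCT from -0.73 to 0.012 and PMEL from -0.81 to 0.16. Low signal limits genes whose levels lay near the table's median of 1.84.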
